A study of Homo sapiens with 47 samples.

Results

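Open chromatin was compared between 451Lu melanoma cells that carried a hairpin against p150 together with over-expressed AP-1 and 451Lu cells that carried the matching control constructs. The lists of ATAC-seq peaks from 2 shp150_AP1 and 2 vector_NT libraries were merged into 108313 regions on chromosomes 1 to 22 and X (hg19). A region was gained when it was called in both shp150_AP1 libraries and in neither vector_NT library, and lost in the reverse case. By this rule 5623 regions were gained, which is 5.19% of the regions, and 3534 were lost, which is 3.26%. The rule uses the calls of these 4 lists, so the counts and scores of gained and lost regions are given as descriptions with no test.

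The series followed melanoma cell lines through resistance to the BRAF inhibitor vemurafenib and through genetic changes made in 451Lu, and it holds 47 samples. The shp150_AP1 cells carried a short hairpin RNA against p150 together with over-expression of both AP-1 subunits, c-FOS and c-JUN. The vector_NT cells carried a vector and an NT control. Sets of 2 ATAC libraries each were also listed for 451Lu cells with 1 change only (AP1 or shp150), for the separate vector and NT controls, and for parental and vemurafenib-resistant cells of 451Lu and of WM983B, a second melanoma line. The labels give 451Lu as the cell line of every engineered group, and they do not say whether a group was 1 clone or a pool, how strongly p150 was lowered, or whether replicates came from separate cultures. The spread between replicates may therefore be technical.

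ATAC-seq uses the transposase Tn5, which cuts where nucleosomes leave DNA exposed, so that a peak marks an accessible promoter, enhancer or other regulatory element. AP-1 is a dimer of JUN and FOS family proteins that binds short palindromic elements and is known for opening enhancers with other factors after mitogenic signals. In melanoma, high AP-1 activity is known to accompany dedifferentiated, drug-tolerant states, while MITF and SOX10 maintain the melanocytic state. The name p150 is commonly used for the large subunit of CAF-1, encoded by CHAF1A. CAF-1 deposits histones H3 and H4 on newly replicated DNA and so restores nucleosomes behind the replication fork. The labels do not spell out which gene p150 stands for.

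JUN held the highest-scoring gained region, and its promoter was called in all 4 libraries. DUSP1, an AP-1 target that encodes a phosphatase for MAP kinases, had a gained region upstream of a promoter that was also called in all 4. Their promoters are shown because both hold an 8-base element of the kind bound by JUN and ATF dimers. The sequences are the 250 bases before the gene start from RefSeq (GRCh38.p14), 5′ to 3′ on the strand of the gene, with the element TGANNTCA in capitals. The JUN window is chr1:58784048-58784297 and the DUSP1 window is chr5:172771196-172771445, both on the minus strand.
JUN: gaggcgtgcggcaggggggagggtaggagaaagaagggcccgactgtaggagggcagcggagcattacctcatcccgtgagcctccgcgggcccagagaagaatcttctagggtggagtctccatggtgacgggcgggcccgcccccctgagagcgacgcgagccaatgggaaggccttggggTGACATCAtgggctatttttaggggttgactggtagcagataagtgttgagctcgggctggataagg
DUSP1: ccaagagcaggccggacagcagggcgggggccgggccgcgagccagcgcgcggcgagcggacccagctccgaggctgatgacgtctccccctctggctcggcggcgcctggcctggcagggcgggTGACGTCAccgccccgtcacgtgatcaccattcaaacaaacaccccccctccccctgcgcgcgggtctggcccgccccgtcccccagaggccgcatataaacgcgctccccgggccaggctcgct
The match in JUN reads TGACATCA and begins 67 bases before the gene start. The match in DUSP1 reads TGACGTCA and begins 125 bases before the start. The pattern TGANNTCA reads the same on both strands and occurred in 10.1% of the 35116 promoter windows of the table. The 7-base AP-1 pattern TGANTCA, also the same on both strands, occurred in 6.57%, and a window can hold both. Of 95 listed genes, 68 were in the table, and 8 of these held TGANNTCA and 9 held TGANTCA. A match is a stretch of letters and was not tested as a binding site.

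The 4 libraries were similar in size. The shp150_AP1 lists held 84393 and 88478 peaks and the vector_NT lists 84718 and 79670, which gives means of 86435.5 ± 2889 and 82194 ± 3569 peaks (SD, n = 2; exact two-sided permutation p = 0.667). They covered 45.82 ± 1.414 Mb and 45.05 ± 2.503 Mb (SD, n = 2; exact permutation p = 1.0). The median peak was narrower in shp150_AP1, at 453.5 ± 0.7071 bp against 474 ± 4.243 bp (SD, n = 2), without overlap, but 2 libraries against 2 cannot go below an exact two-sided p of 0.333. The bases called in both libraries, as a fraction of the bases called in either, came to 0.692 for the shp150_AP1 pair and 0.71 for the vector_NT pair. Across the groups this fraction lay between 0.651 and 0.662, below both replicate pairs. The sequencing depth behind the lists is unknown.

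Gained and lost regions together were a small part of the open chromatin, and most of it was shared. Constant regions, called in all 4 libraries, numbered 61240 or 56.5% and covered 47.07 Mb. The gained regions covered 2.278 Mb with a median width of 392 bp, and the lost regions covered 1.346 Mb with a median width of 366 bp, against 681 bp for constant regions. Regions called in 1 library only numbered 5494 and 7017 in the shp150_AP1 replicates and 5407 and 3258 in the vector_NT replicates. Thus each shp150_AP1 library had about as many regions of its own as the pair had gained regions, or more.

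**Figure D1:**
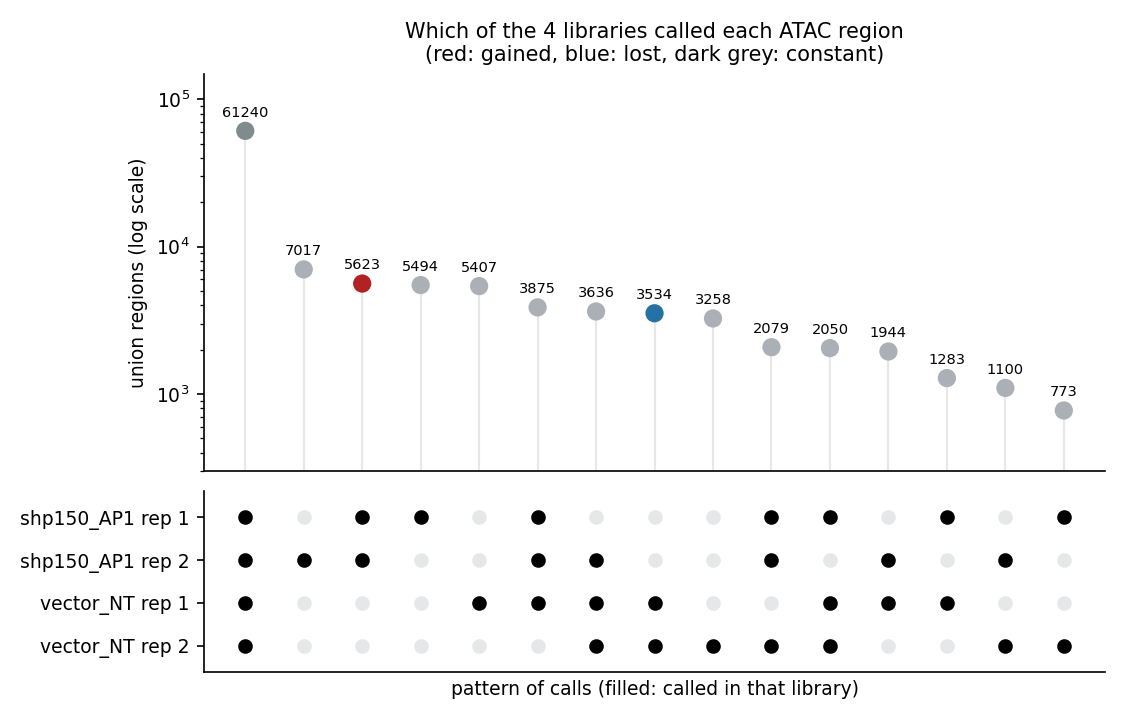
Number of union regions (log scale) for each pattern of calls over the 4 ATAC libraries, with filled dots below marking the libraries that called the region. The pattern of all 4 libraries holds 61240 regions, the gained pattern 5623 and the lost pattern 3534, and regions called in a single library number from 3258 to 7017.

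The excess of gained over lost regions depended on the lengths of the lists. The ratio of gained to lost was 1.59 with all peaks. With the 4 lists cut to the same length there were 4460 gained and 4229 lost regions, a ratio of 1.05. With vector_NT replicate 2, the shortest list, left out there were 7721 gained and 9067 lost regions, a ratio of 0.852, so the direction turned. The data therefore give no direction to the balance of gains and losses that holds over these settings. Many of the regions were the same under the equal lists: 3997 of the 5623 gained regions (71.1%) and 3060 of the 3534 lost regions (86.6%) kept their class.

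The gained and lost regions were weak peaks within their own lists. The score is the value that the authors' peak caller gave to a peak, and it was used only to rank and describe peaks within a list. Gained regions had a median score of 6.603 in both shp150_AP1 libraries, where constant regions had 16.13 and 17.4. Lost regions had medians of 6.544 and 6.283 in the vector_NT libraries, where constant regions had 18.95 and 17.62. In the shp150_AP1 lists 59.5% and 54.6% of gained regions lay below the lower quartile of scores, and in the vector_NT lists 58.0% and 63.6% of lost regions did. Both scores reached 10 in 390 gained (6.94%) and 234 lost regions (6.62%), and both reached 20 in 6 gained and 2 lost regions. At the lower edge, the gained region with the lowest score, chr15:99982665-99983014, had 2.06 and 5.488, close to the lowest scores of these lists, 2.001 and 2.032. Just outside the rule, 5954 regions were called in both shp150_AP1 libraries and 1 vector_NT library, with a median score of 5.98 in that single control call. On the other side 5686 regions were called in both vector_NT libraries and 1 shp150_AP1 library, with a median of 6.03 in the single call.

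JUN, one of the introduced genes, held the first of the gained regions. It encodes c-JUN, a subunit of AP-1, and has no introns. A region of 754 bp inside its body, chr1:59247944-59248697, scored 26.4 and 26.6 in the shp150_AP1 replicates and was in neither vector_NT list. It stood first of the 5623 gained regions by the lower of its 2 scores. The same region was called in both AP1 libraries, at scores of 18.8 and 11.6, and in none of the parental, resistant, vector, NT or shp150 libraries of 451Lu. In WM983B, which carried no construct by its labels, it was called in all 4 libraries with scores of 9.03, 14.0, 5.16 and 3.78. The JUN promoter, whose sequence is given above, was called in all 4 libraries of the comparison with scores of 36.9, 26.0, 37.0 and 30.8. At JUN, then, the groups differed inside the gene body and not at the promoter.

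FOS encodes c-FOS, the partner of c-JUN. The gained region chr14:75747611-75748034 lay inside the FOS body, from 2.13 to 2.55 kb after the gene start, and scored 8.55 and 5.16 in the shp150_AP1 replicates. It was called in none of the other 16 ATAC libraries, those of AP1 alone included. A second stretch of the body, from 1.11 to 1.31 kb, was called only in shp150_AP1 replicate 1, with a score of 6.66. A lost region, chr14:75774389-75774829, lay 25.5 kb downstream of FOS and scored 10.4 and 8.63 in vector_NT. Reads from an introduced c-JUN or c-FOS sequence and reads from the native gene cannot be told apart in a peak list, so the regions inside JUN and FOS do not show which copy was open.

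**Figure D2:**
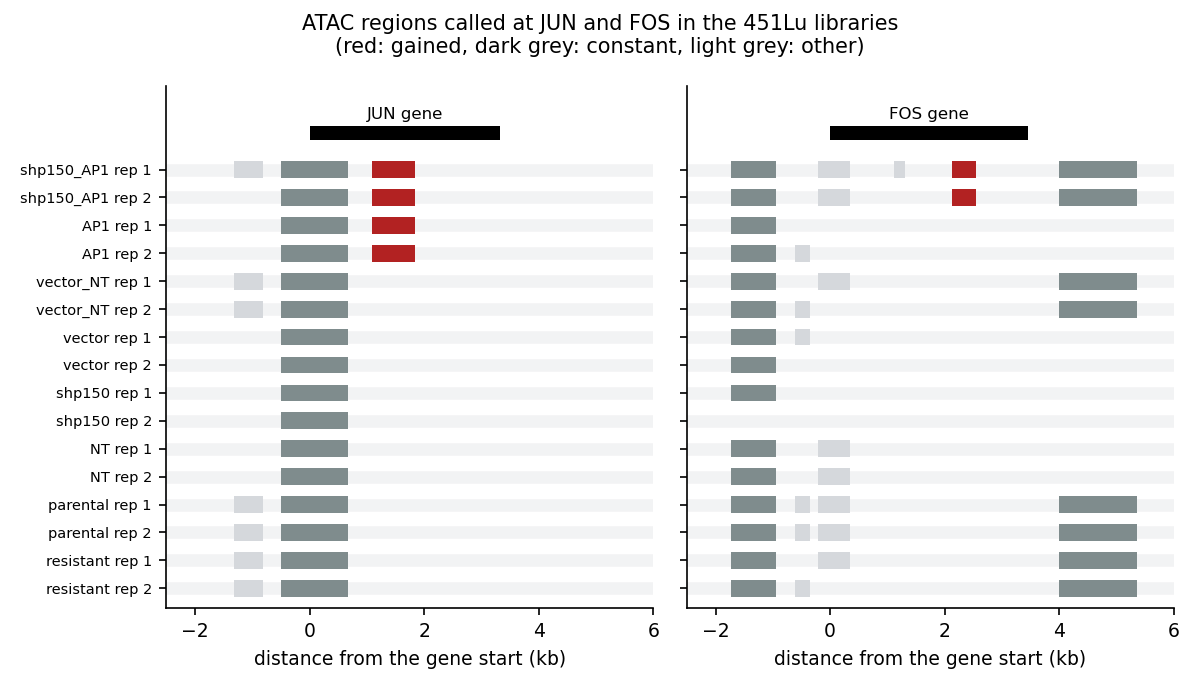
ATAC regions called at JUN and FOS in each of the 16 451Lu libraries, by distance from the gene start in kb, with the gene as a black bar. The red region inside JUN is called in both shp150_AP1 and both AP1 libraries, the red region inside FOS in both shp150_AP1 libraries alone, and the region at the JUN start in all 16.

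No region near CHAF1A met the rule for gained or lost. Of 11 regions within 50 kb of the gene 7 were constant, and the others had mixed calls. Its promoter was called in all 4 libraries with scores of 14.9, 15.8, 16.4 and 15.8. Calls at the promoter carry no information on how much p150 protein or RNA the hairpin removed. Among the 7 listed histone chaperone genes (CHAF1A, CHAF1B, RBBP4, ASF1A, ASF1B, HIRA and DAXX) 65 regions were measured, of which 0 were gained and 1 was lost, 18.5 kb downstream of CHAF1B, the middle subunit of CAF-1. All 7 promoters were called in all 4 libraries.

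The other gained regions with the highest scores lay outside the listed genes. Their genes were looked up after the values were seen. The second, chr5:167126501-167126947, scored 26.1 and 23.0 and lay inside TENM2, which encodes a teneurin, a cell adhesion protein. It was also called in both resistant libraries (29.7 and 26.5), in both parental libraries (9.07 and 6.59), in both NT libraries (13.0 and 11.8), in 1 shp150 library (8.91) and in all 4 WM983B libraries. The fifth, chr22:40592566-40593092, scored 23.9 and 21.4 inside TNRC6B, a partner of Argonaute in microRNA silencing, and was called in both resistant libraries (19.6 and 13.9) and in no parental library. The eighth, chr1:64127827-64128603, scored 20.0 and 19.7 and lay 1.91 kb downstream of PGM1, an enzyme of glycogen and glucose metabolism. It was called in both resistant libraries at 25.7 and 23.5, in 1 parental library (6.59) and in all 4 WM983B libraries. The tenth, chr1:161785976-161786405, scored 22.5 and 19.5 inside ATF6, a sensor of protein folding stress. It was called in 1 other library only, resistant replicate 2, with a score of 4.58. Of the 10 highest-scoring gained regions, JUN was the one that both AP1 libraries called.

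The remaining 5 of these 10 fell outside the genes placed here, or beside one. The region chr6:84152483-84152883 lay 11.5 kb upstream of ME1, the malic enzyme of the cytosol, and scored 19.5 and 21.9. It was called in both resistant, both parental (7.49 and 4.34) and 3 of the 4 WM983B libraries, in 1 NT library (6.99) and in 1 shp150 library (4.17). The regions chr11:8033597-8034058 (25.3 and 22.5), chr3:64307319-64307773 (21.9 and 23.8), chr22:17430333-17430841 (21.2 and 27.3) and chr11:74811358-74811869 (19.9 and 23.6) are given by position. Each of these 4 was called in at least 1 resistant library, in all 4 WM983B libraries and in no parental 451Lu library. The NT controls called the chr11:8033597 region (7.87 and 6.73) and the chr3 region (9.63 and 5.71), and 1 NT library called the chr22 region (6.84). In 1 shp150 library the chr11:8033597 region (9.64) and the chr3 region (6.52) were called. The chr3 region was also called in 1 AP1 library (9.52).

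The highest-scoring lost regions were called in parental cells, and part of them also in resistant cells. The first, chr2:32500808-32501218, scored 26.3 and 24.8 in vector_NT and 25.7 and 24.4 in the parental libraries, and was called in neither resistant library. The second, chr10:16627124-16627494, scored 20.1 and 22.4 and lay 5.12 kb downstream of RSU1, a focal adhesion protein. The fourth, chr2:11941125-11941754, scored 19.2 and 21.9 inside LPIN1, a phosphatidate phosphatase. The sixth, chr2:136899825-136900214, scored 26.0 and 17.9 and lay 24.1 kb upstream of CXCR4, the receptor of the chemokine CXCL12. It was called at 14.5 in both parental libraries and in neither resistant library. The seventh, chr5:88092482-88092859, scored 17.8 and 18.3 inside MEF2C, a MADS-box transcription factor. The tenth, chr5:145160581-145160897, scored 17.6 and 18.2 inside PRELID2. The others of the 10 were chr12:117133056-117133530, chr13:51313244-51313708, chr9:112318280-112318635 and chr4:89212079-89212441. All 10 were called in both parental libraries. Both resistant libraries also called the fourth (2.97 and 9.54), the seventh (5.96 and 7.24) and the tenth (5.98 and 8.44). They called the chr13 region (5.81 and 5.53) and the chr4 region (14.8 and 6.52) too. Neither resistant library called the second, the chr12 or the chr9 region.

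Genes known as AP-1 family members and targets had gained regions at shares near those of all regions. Within 50 kb of the 9 AP-1 subunit genes, 7 of 110 regions were gained (6.36%) and 4 were lost (3.64%), beside 5.19% and 3.26% of all regions. Apart from JUN and FOS, gained regions lay near FOSB (2), FOSL1, FOSL2 and JUND. The stronger FOSB region, 24.0 kb upstream, scored 12.8 and 10.5, and a lost region began within 1 kb of it, at scores of 7.72 and 4.39. The FOSL1 region lay 1.12 kb into the gene and scored 5.71 and 9.53. It was also called in both NT (8.91 and 7.29) and both shp150 libraries (4.11 and 5.64). Both resistant libraries, 1 parental library (5.23) and all 4 WM983B libraries called it too. FOSL1 encodes FRA-1, a subunit linked to invasive melanoma states. Lost regions lay near ATF3 (7.57 and 8.2), BATF (10.8 and 14.1), FOSB and FOS. Of the 9 promoters, that of ATF3 held no region within 1 kb, and each of the others held a constant one. At FOS the constant region only reached the edge of this distance, from -1.73 to -0.951 kb. The region over the FOS start, from -0.219 to 0.349 kb, was called in both shp150_AP1 libraries (3.47 and 6.94). It was also called in vector_NT replicate 1 (5.24) but not in replicate 2.

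Near the 16 AP-1 target genes 9 of 149 regions were gained (6.04%) and 5 were lost (3.36%). LIF, a cytokine of the interleukin-6 family, had 3 gained and no lost regions among 14. The strongest, chr22:30620181-30620727, lay 15.7 kb downstream and scored 13.6 and 16.6, and both resistant libraries but no parental library called it. MMP9, a gelatinase, had a gained region 0.293 kb upstream of its start, with scores of 6.38 and 6.3, which all 4 WM983B libraries and no other 451Lu library called. MMP3, the collagenase activator stromelysin, had a gained region 7.47 kb upstream that scored 6.82 and 10.9. Both resistant libraries listed it at 25.3 and 33.4, and both NT libraries at 12.1 and 4.53. It was also called in 1 shp150 library (6.51) and 1 parental library (4.65). DUSP1, whose promoter is shown above, had a gained region 18.6 kb upstream with scores of 5.51 and 4.96. This region was also called in both parental (4.38 and 6.29) and both resistant libraries (11.3 and 10.1). Single gained regions also lay near CCND1 (cyclin D1) and PLAU (urokinase). Lost regions lay near SPP1 (osteopontin), PLAUR (the urokinase receptor), CXCL8 (interleukin-8), VIM (vimentin) and MMP9. The one near SPP1 scored 13.0 and 12.3 and was called in both parental and neither resistant library. Of the 9 gained regions 8 were called in both resistant and 3 in both parental libraries, beside 51.1% and 10.1% of all gained regions. Within 10 kb of the 16 genes 3 of 63 regions were gained and 3 were lost (4.76% each).

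Of the 15 melanocyte lineage and pigment genes 11 held a region called in all 4 libraries within 1 kb of the gene start. Among them were MITF, SOX10, PAX3, TYR, DCT and MLANA, which are defining genes of the lineage. PMEL held a region called in 3 of the 4 libraries, and TYRP1, TFAP2A and TRPM1 held no region there. The scores at the DCT promoter were 21.0 and 21.4 in shp150_AP1 and 48.8 and 48.1 in vector_NT, and at TYR, the tyrosinase gene, 13.4 and 17.2, and 27.5 and 23.2. The groups did not overlap at either promoter, but a score is the peak's own value within its list, so a difference in openness cannot be read from these values. No region lay within 1 kb of the starts of KRT5, KRT14, EPCAM or CDH1 (epithelium), PTPRC or CD3E (leukocytes), CDH5 (endothelium), MYOD1 (muscle) or ALB (liver). Within 50 kb of the 8 of these markers other than CDH1, 4 of 46 regions were gained (8.7%), near KRT5, CD3E and CDH5 (2), and 1 was lost (2.17%), near KRT14. Within 10 kb none of 17 was gained or lost.

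Around the 15 lineage genes 7 of 186 regions were gained (3.76%) and 5 were lost (2.69%). Within 10 kb 6 of 112 were gained (5.36%) and 4 were lost (3.57%), so these shares lay below those of all regions at the wider distance and above them at the narrower one. MITF, the master regulator of melanocytes, had 3 gained and 2 lost regions among 39. One gained MITF region lay 0.597 kb upstream of the start of the gene and scored 9.87 and 9.49. The others lay inside the gene and scored 6.6 and 6.99, and 3.69 and 8.82, and both resistant libraries called all 3. DCT, a melanin synthesis enzyme, had a lost region 0.567 kb into the gene, scored at 6.23 and 5.26. TYR had a gained region 26.2 kb into the gene that scored 5.93 and 5.61 and that 1 shp150 library also called. Single gained regions lay near PAX3, TFAP2A and RAB27A, and lost regions near OCA2 and RAB27A.

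Receptors and ligands known from BRAF inhibitor resistance had 10 gained (4.98%) and 6 lost regions (2.99%) of 201. NRG1, a ligand of ERBB3, had 3 gained regions and 1 lost among 26, and 1 of the gained regions ended 0.031 kb before the gene start (8.27 and 3.61). ROR2, a receptor of WNT5A, had 2 gained regions of 17, and the one at chr9:94571856-94572403 scored 9.84 and 7.63 and was called in both resistant libraries alone of the others. Single gained regions lay near EGFR, FGFR1, PDGFRB, NGFR and KIT. WNT5A, IGF1R, ERBB2, PDGFRA and KIT had 1 lost region each. The lost region inside WNT5A scored 10.8 and 10.5 in vector_NT and was called in every parental, resistant and WM983B library.

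ERK output and feedback genes had 8 gained (6.35%) and 6 lost regions (4.76%) of 126. Within 10 kb the order turned, with 1 gained (1.45%) and 3 lost (4.35%) of 69. MYC, a driver of growth, had 2 gained regions among 8. The one 12.4 kb upstream scored 11.2 and 12.6 and was called in both resistant and all 4 WM983B libraries. The one 25.4 kb downstream scored 14.8 and 9.8 and was called in no other ATAC library of the series. PHLDA1, induced by ERK signalling, had a gained region that scored 7.5 and 9.79 and that both resistant libraries listed at 24.9 and 21.7. ETV1, an ETS factor, had 1 gained and 2 lost regions, and the lost one inside the gene scored 14.4 and 11.6. Gained regions also lay near DUSP4, ETV4, SPRED1 and SPRED2, and lost regions near DUSP6, ETV4, ETV5 and SPRED1.

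Near the 8 YAP and TEAD genes 1 of 95 regions was gained (1.05%) and 5 were lost (5.26%). WWTR1, which encodes the coactivator TAZ, had 3 lost regions among 21, with scores from 3.83 to 7.2 in vector_NT. TEAD1 and TEAD4, its DNA-binding partners, had 1 lost region each, and ANKRD1, a target, had the gained one (8.95 and 7.63). Within 10 kb of these genes 0 of 60 regions were gained and 4 were lost (6.67%). Near the 13 genes of the mesenchymal and EMT (epithelial to mesenchymal transition) list 8 of 155 regions were gained (5.16%) and 10 were lost (6.45%), and within 10 kb 2 of 90 were gained and 9 were lost. The list holds CDH1, an epithelial gene. Without CDH1, a setting chosen after seeing the data, 8 of 141 regions were gained and 6 were lost.

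CDH1, which encodes the epithelial adhesion protein E-cadherin, had 4 lost and no gained regions among 14. Their scores in vector_NT were 4.6 and 7.89, 4.6 and 6.49, 8.63 and 14.1, and 9.73 and 10.7. The last of these, chr16:68818096-68818723, was also called in both parental, both resistant, both vector and both NT libraries, in 1 AP1 library and in 1 WM983B library. TNC (tenascin C) and TGFB2 had 2 lost regions each, and ZEB1, a repressor of CDH1, had 1 at 0.533 kb into the gene (8.66 and 5.0). ZEB2 had 3 gained regions and 1 lost. SNAI2, which encodes the repressor SLUG, had 2 gained regions of 9. They scored 10.7 and 7.59, and 8.45 and 6.58, and both resistant libraries called both. The first was also called in both NT (10.9 and 4.83) and both vector libraries (5.5 and 6.49), and in 1 AP1 library (4.58). The second was also called in 1 vector library (5.54). Each was called in parental replicate 1 (6.91 and 4.65) and in all 4 WM983B libraries. Single gained regions lay near THBS1, SPARC and TGFBI.

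Taking the 95 genes of these lists as 1 set, 50 of 1087 regions were gained (4.6%) and 42 were lost (3.86%). A constant region lay within 1 kb of the start of 72 genes, a gained one at 4 (MITF, MMP9, NRG1 and FOSL1) and a lost one at 2 (DCT and ZEB1). No region at all lay there at 14. Within 10 kb the order turned, with 24 gained (4.03%) and 27 lost (4.54%) of 595. Of the 50 gained regions 30 were called in both resistant and 8 in both parental libraries, beside 51.1% and 10.1% of all gained regions. Of the 42 lost regions 13 were called in both resistant and 25 in both parental libraries, beside 27.7% and 57.7% of all lost regions. Of the 95 genes 35 had neither a gained nor a lost region. A gene with many regions has more chances to hold a gained or lost one, and its expression was not measured here.

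Gained regions were spread over every chromosome. The share of regions that were gained ran from 4.04% on chromosome 6 to 7.82% on chromosome 20, where 272 of 3479 regions were gained and 71 (2.04%) were lost. Chromosomes 22 (6.68%) and 21 (6.16%) followed. The share lost ran from 2.03% on chromosome 19 to 4.02% on X. Copy number of 451Lu was not measured here, and its part in these shares was not tested. The window of 1 Mb with the most gained regions was 36 to 37 Mb on chromosome 20, with 15 gained and 1 lost of 78, and it holds CTNNBL1, which had 4 gained regions of 18 within 50 kb. The next were 72 to 73 Mb on chromosome 3 with 11 of 116 (the window of RYBP, a Polycomb subunit) and 49 to 50 Mb on chromosome 8 with 11 of 74, which holds SNAI2. Windows with 10 gained regions were 17 to 18 Mb on chromosome 7, which holds the aryl hydrocarbon receptor gene AHR, and 69 to 70 Mb on chromosome 11, which holds CCND1.

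The highest number of lost regions in a window was 7, reached at 85 to 86 Mb and 202 to 203 Mb on chromosome 2 and at 111 to 112 Mb on chromosome 6, which touches the SRC-family kinase gene FYN. The next windows, 12 to 13 Mb and 38 to 39 Mb on chromosome 2, held 6 each, and the first of them also held 8 gained regions. Windows with 5 or more gained and no lost regions numbered 57, and windows with 5 or more lost and no gained regions numbered 3, of 2880 windows. The lost regions are fewer, so these counts do not compare how grouped the classes are. Another gained region lay within 10 kb of 4.48% of gained regions, beside 4.36% of all regions with a gained region that near. Another lost region lay within 10 kb of 3.11% of lost regions, beside 3.37% of all regions. A constant region lay within 10 kb of 35.2% of gained and 45.4% of lost regions, beside 40.2% of all regions.

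Few of the gained regions were called in the libraries of the single changes or of their controls. Among the 5623 gained regions 3.57% and 6.46% were called in the AP1 libraries and 11.9% and 10.5% in the shp150 libraries. The controls of these groups called 5.53% and 4.21% (vector) and 17.4% and 17.0% (NT). The shp150 libraries called fewer of the gained regions than their NT controls, without overlap, but also fewer of the constant regions (59.6% and 58.3% against 71.9% and 69.3%), and their lists are shorter (43913 and 42898 against 55609 and 53419 peaks). The AP1 and vector libraries overlapped. The lists of these 8 libraries, at 42898 to 56824 peaks, are shorter than those of shp150_AP1 and vector_NT. Of the gained regions 36 (0.64%) were called in both AP1 and no vector library, beside 0.962% of all regions, and 20 (0.356%) in both shp150 and no NT library, beside 0.397% of all regions. In all, 66.4% of gained regions (exact 95% binomial interval 65.1% to 67.6%, counting error only) were in none of these 8 libraries. For lost regions this was 57.8%, and the share of all regions was not computed. For lost regions the AP1 libraries called 10.9% and 16.9%, vector 19.6% and 16.2%, shp150 7.16% and 6.93%, and NT 14.9% and 13.5%. Both AP1 libraries called 1.49% of gained, 6.28% of lost and 39.2% of all regions. For both vector libraries these shares were 1.42%, 9.25% and 41.5%. For both shp150 libraries they were 5.44%, 2.94% and 29.4%, and for both NT libraries 10.8%, 7.84% and 38.9%.

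Parental and resistant cells differed in the regions they called. The resistant 451Lu libraries called 57.6% and 64.2% of gained regions and the parental ones 22.1% and 21.0%. Of lost regions the resistant libraries called 38.1% and 42.9% and the parental ones 70.3% and 72.4%. The libraries of parental and resistant cells did not overlap in either measure, and 2 against 2 cannot pass 0.05. Constant regions were called at 95.1% to 97.4% in all 4. Both resistant libraries called 51.1% of gained, 27.7% of lost and 68.5% of all regions. Both parental libraries called 10.1% of gained, 57.7% of lost and 65.8% of all regions. The resistant lists are longer, at 89922 and 94550 peaks against 82621 and 83203 in parental cells. Of the gained regions 1784 (31.7%) were called in both resistant and no parental library, beside 5.88% of all regions. They are 28.0% of the 6369 regions with that pattern. The opposite pattern held at 79 gained regions (1.4%), beside 3.69% of all regions. Of the lost regions 835 (23.6%) were called in both parental and no resistant library, beside the same 3.69% of all regions. The opposite held at 88 lost regions (2.49%), beside 5.88%. Outside both states, 1270 gained regions (22.6%) were called in no parental or resistant library, and 462 (8.22%) in no other ATAC library of either line. For lost regions these were 314 (8.89%) and 141 (3.99%), and the shares of all regions were not computed.

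**Figure D3:**
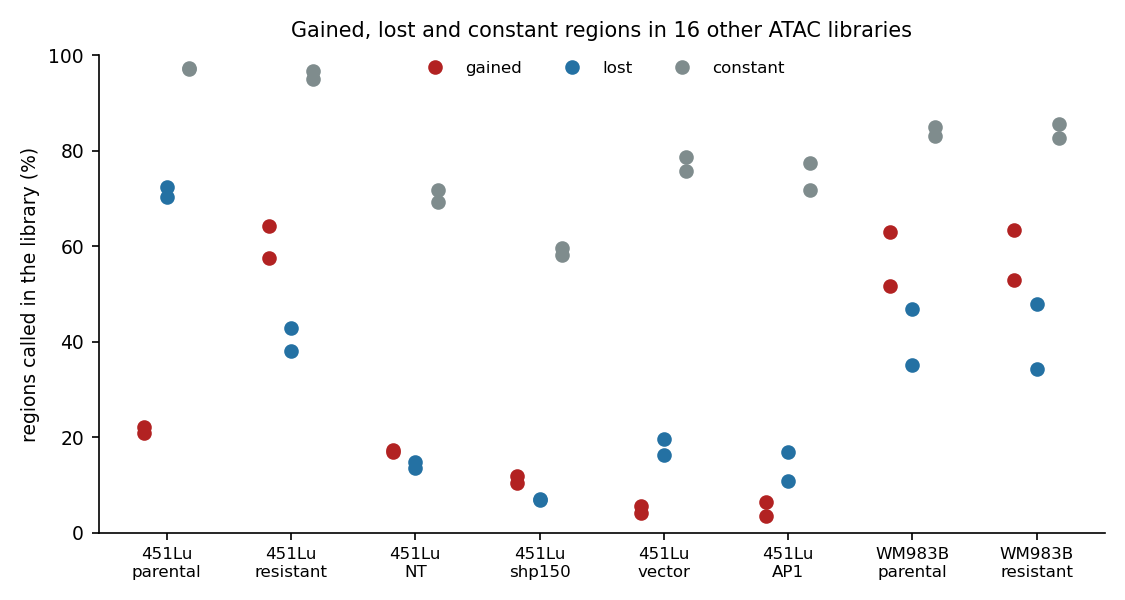
Percent of gained, lost and constant regions called in each of 16 other ATAC libraries, 1 point per library. Gained regions reach 57.6% and 64.2% in resistant and 22.1% and 21.0% in parental 451Lu, lost regions reach 70.3% and 72.4% in parental cells, and gained regions stay at or under 17.4% in the single-change and control libraries.

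WM983B cells, which come from another tumour line, called more gained than lost regions in both states. The parental libraries called 51.8% and 63.1% of gained regions and the resistant ones 53.0% and 63.5%. For lost regions the values were 46.8% and 35.2%, and 47.9% and 34.4%. Replicates with the same number were alike, while parental and resistant libraries overlapped. The WM983B lists are longer, with 129339 to 147988 peaks, and reach down to scores of 1.303 to 1.317, where the lists of 451Lu end between 2.001 and 2.036. Shares are therefore not compared between the lines.

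Gained and lost regions with higher scores were found again more often in other libraries. The gained regions were split into 4 groups of equal size by the lower of their 2 scores, from 2.06 to 4.35 in the lowest and from 6.86 to 26.4 in the highest. Both resistant libraries called 40.5%, 44.7%, 52.3% and 67.1% of them from the lowest to the highest group. Both parental libraries called 8.32% of the lowest and 12.7% of the highest group. All 4 WM983B libraries called 31.4% and 52.2%, both NT libraries 7.04% and 19.0%, both shp150 libraries 3.41% and 10.2%, and both AP1 libraries 0.498% and 3.2%. The lost regions showed the mirror image in 451Lu: both parental libraries called 38.8% of the lowest and 82.2% of the highest group, and both resistant libraries 20.8% and 35.2%. In WM983B the share of lost regions called in all 4 libraries was 21.2% in the lowest and 19.7% in the highest group. Of all regions both resistant libraries called 68.5% and both parental libraries 65.8%. Other regions were not split by score, so whether these rises are particular to gained or lost regions was not tested.

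**Figure D4:**
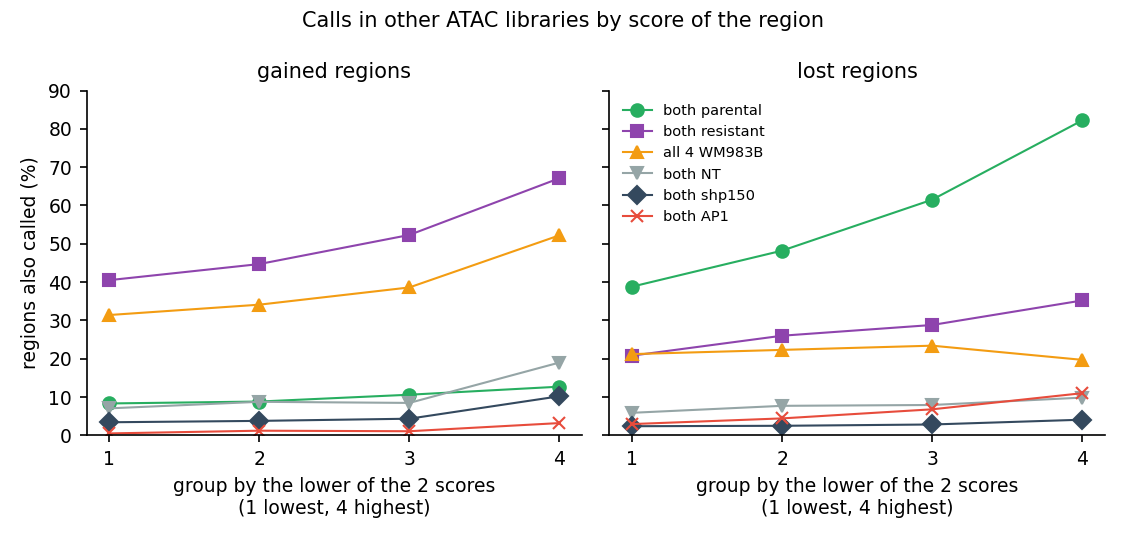
Percent of gained (left) and lost (right) regions also called in other sets of ATAC libraries, in 4 groups of equal size by the lower of the 2 scores. The line for both resistant libraries climbs from 40.5% to 67.1% over the gained groups, and the line for both parental libraries from 38.8% to 82.2% over the lost groups.

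Heterochromatin overlapped gained regions more often than the rest. H3K9me3, a histone mark of silent chromatin, was listed as broad islands in the same 2 groups of cells. Of the gained regions 9.91% and 11.3% lay inside an island of shp150_AP1 and 13.7% and 13.2% inside one of vector_NT. For lost regions the shares were 6.51% and 7.67%, and 8.55% and 8.69%. For constant regions, which are wider, they were 5.17% and 6.09%, and 6.63% and 6.47%. The order was gained, lost, constant in each of the 4 libraries. All 3 classes had lower shares in shp150_AP1 than in vector_NT, as did all regions together, at 6.08% and 7.1% against 8.01% and 7.79%. The shp150_AP1 islands held 11.5 M and 14.9 M ChIP reads (M, mega) and covered 268.5 and 317.6 Mb. Those of vector_NT held 31.1 M and 21.8 M and covered 396.3 and 379.1 Mb, so fewer reads moved with the lower shares, and their part in the result was not tested.

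A change of the mark at the gained regions themselves was rare. Both vector_NT but neither shp150_AP1 library had an island at 110 gained regions (1.96%) and at 1.23% of all regions. The reverse held at 22 gained regions (0.391%) and at 0.45% of all regions. At 4528 gained regions (80.5%) no library had an island, beside 87.6% of all regions, and at 337 (5.99%) all 4 had one, beside 3.33% of all. Among lost regions 50 (1.41%) were in islands of vector_NT alone and 19 (0.538%) in islands of shp150_AP1 alone.

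H3K27ac, a mark of active enhancers and promoters, has 2 libraries each of parental and resistant 451Lu in the labels. Of these, 1 of each was used here, so these shares have no replicate check. The parental list held 32304 and the resistant list 51710 peaks. Of gained regions 1.23% (exact 95% binomial interval 0.956% to 1.55%) overlapped a parental and 4.93% (4.38% to 5.52%) a resistant H3K27ac peak. Of lost regions 3.28% (2.72% to 3.92%) overlapped a parental and 2.66% (2.15% to 3.25%) a resistant peak. Of all regions 13.0% overlapped a parental and 15.0% a resistant peak. Constant regions stood highest, at 21.2% and 23.7%. They are wider, and an overlap of 1 bp was enough. An H3K27ac peak of the resistant list alone lay at 224 gained (3.98%), 38 lost (1.08%) and 4715 constant regions (7.7%), beside 5.33% of all. One of the parental list alone lay at 16 gained (0.285%), 60 lost (1.7%) and 3199 constant regions (5.22%), beside 3.29% of all. H3K27ac of the shp150_AP1 and vector_NT cells was not analysed here.

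**Figure D5:**
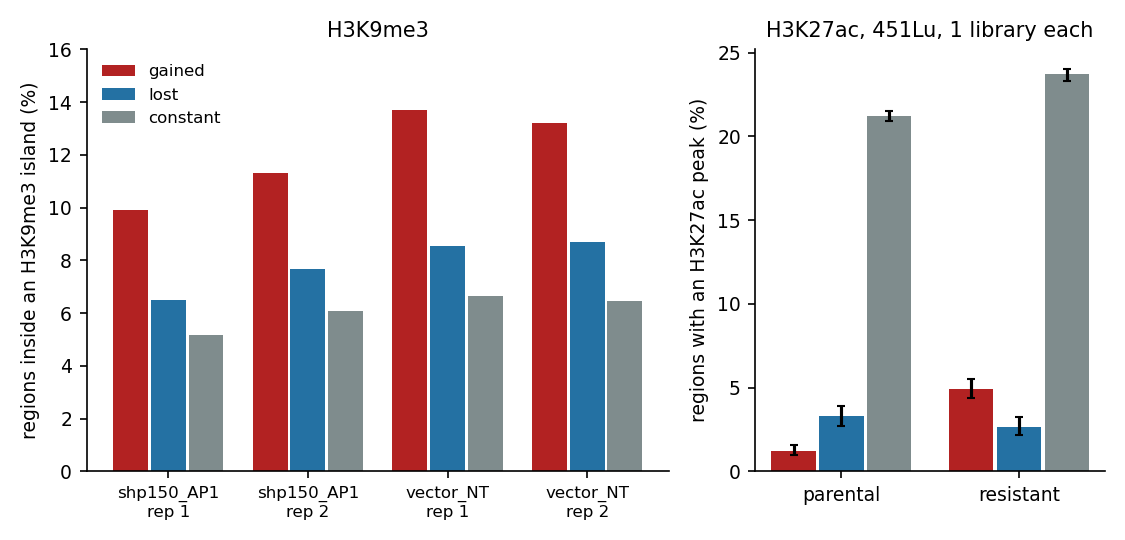
Left, percent of gained, lost and constant regions inside an H3K9me3 island of each shp150_AP1 and vector_NT library; right, percent overlapping an H3K27ac peak of parental and resistant 451Lu, with exact 95% binomial intervals. Gained regions are highest for H3K9me3 in all 4 libraries (9.91% to 13.7%) and low for H3K27ac (1.23% and 4.93%) beside constant regions (21.2% and 23.7%).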

How the data were processed

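The authors deposited 1 peak list for each ATAC-seq and H3K27ac library used here, with a score per peak. Each deposited H3K9me3 island carries its read counts from ChIP and input, their ratio (fold enrichment), a p-value and a false discovery rate. The labels list an input for shp150_AP1 replicate 2 and for both vector_NT replicates, but none for shp150_AP1 replicate 1. Which input served that library is not given. The submitters' processing notes name the build hg19 and the tools MACS2, SICER, Bowtie2, STAR 2.5.3, deepTools and Picard, with no role given. Which tool made which file, duplicate removal and any Tn5 shift are steps the sources used here do not give, and depth is unknown. Overlapping or touching peaks of the 4 lists were merged, and a region was called where at least 1 bp was covered. The caller was tested on simulated lists, where 100% of 20000 regions came back in their class. Python 3.11.15, pandas 2.3.3, numpy 2.4.6 and scipy 1.17.1 were used. Exact permutation compared libraries, and no model was fitted to calls.

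No hg19 annotation was used. Positions of 103 listed genes, and of genes named beside single regions, were written from general knowledge of hg19. The 103 were checked against RefSeq GRCh38.p14 by chromosome (all matched) and gene length (83 within 1 kb, the largest difference 70.2 kb). Genes named beside single regions also matched by chromosome. Their lengths differed by 305809 bp for TENM2, 242788 bp for PRELID2 and 69072 bp for LPIN1, so a position inside these genes is less sure. All distances are approximate. PECAM1, an endothelial marker, was not placed. One listed gene is counted in its list but not reported here by itself. Named were the 10 highest-scoring gained and lost regions, the 5 windows of 1 Mb with the most of each, JUN, FOS, CHAF1A, and every listed gene with a gained or lost region within 50 kb. The members and lists were chosen with earlier results of these data known. Parental and resistant H3K9me3, WM983B H3K27ac and a table of authors' fold changes were not used here.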

Additional observations from a re-analysis of the deposited data

How the results depend on the processing

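No paired analysis was possible because the replicate numbers are not said to mark a shared culture or day, and each region is either called or not, with no test to block. Counting a region as called only where 50% was covered gave 6650 gained and 4551 lost regions, a ratio of 1.46. Using only peaks with a score of at least 5 gave 4481 and 3701, a ratio of 1.21, and the list of equal length gave 4460 and 4229, a ratio of 1.05. Merging peaks up to 100 bp apart gave 5593 and 3513. Leaving out 1 library, so that a group was called by the remaining one, gave 7721 to 12823 gained and 5613 to 9067 lost regions, with ratios from 0.852 to 2.28. The lowest ratio, 0.852, came without vector_NT replicate 2 and was the 1 reversal of the ratio. Fewer libraries per group set these counts higher by construction. The 10 highest-scoring gained and 10 lost regions kept their class under every setting. For the score minimum and the equal lists this was fixed by their high scores. For the left-out libraries it was fixed by the rule, which keeps 100% of the gained and lost regions. Only the 50% and 100 bp settings could have changed it. Of 54 gained and 43 lost regions near listed and marker genes, 36 and 25 remained with the score minimum, the lowest numbers of any setting.

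The difference in covered length, 0.7731 Mb more in shp150_AP1, turned to -0.05046 Mb with the score minimum and -0.3821 Mb with equal lists, 2 settings chosen after seeing the data. It was -0.229 Mb without shp150_AP1 replicate 2 and -0.9979 Mb without vector_NT replicate 2, within a range of -0.9979 to 2.544 Mb over the 4 libraries left out. With 50% covered, the shares of gained regions called in the 16 other ATAC libraries ran from 2.22% to 59.0%. Islands with a false discovery rate of at most 0.01 left 7.58% to 11.8% of gained regions in H3K9me3. Asking for the midpoint inside the H3K27ac peak left 0.587% and 1.14% of gained, 0.792% and 0.905% of lost and 7.9% and 10.2% of constant regions. Within 10 kb of the 95 genes 24 gained and 27 lost regions lay. Peak lists carry no depth, so a region outside a list may be open below its threshold.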
